A study of Homo sapiens with 27 samples.

Results

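The comparison described here set EA.hy926 endothelial cells kept for 48 h in medium from senescent mesenchymal stromal cells (MSCs) against unexposed EA.hy926 cells. It takes in replicates 2 to 4 of each group, 6 of the 27 libraries of the series, chosen by the group and replicate number in the sample labels. The senescent CM group (CM, conditioned medium) received medium from ASC52telo cells, a human adipose MSC line immortalised with telomerase. An 18 h treatment with mitomycin C at 1.5 µg/mL, which crosslinks DNA, had made these MSCs senescent, and 10 days without passage followed it. Their medium was mixed 1:1 with endothelial culture medium. The control group was EA.hy926 cells with no exposure to MSCs or their products. All groups were grown in DMEM/F12 with serum and antibiotics, per the labels' protocols. Beside them stand young CM, medium from MSCs without mitomycin C, and senescent ECM, in which EA.hy926 cells grew on decellularised matrix laid down by mitomycin-treated MSCs. A young ECM group, EA.hy926 cells on matrix from MSCs without mitomycin C, enters the fit only as part of the shared estimate of spread. EA.hy926 is a single hybrid line, the product of a fusion between umbilical vein endothelium and a lung carcinoma line (A549), so it carries epithelial as well as endothelial features. None of the 7 groups in the series is a medium control conditioned without MSCs, so the part of MSC products in the changes was not tested. Titles and cell line labels give EA.hy926 and were followed here, although the text on RNA isolation speaks of MSCs. The labels give all libraries 1 run. Nothing in the labels says that the replicates were separate cultures, so the spread behind the p-values is that of these libraries and may be technical.

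Senescent cells stop dividing but stay metabolically active and release cytokines, growth factors, proteases and protease inhibitors, together called the senescence-associated secretory phenotype. Endothelial cells read such signals through cytokine, growth factor and TGF-beta receptors. They answer by changing their cell junctions, their matrix and proteases, and the balance of clotting and fibrinolysis at their surface.

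The 6 libraries held 82696683 to 105949470 counts each. Levels are CPM, a gene's counts relative to its library's TMM-scaled total. Means are given with the SD over the 3 replicates, and log2 fold changes with their standard error. Every adjusted p is from the quasi-likelihood F-test of edgeR with replicate number as a blocking term and Benjamini-Hochberg adjustment over all genes tested, unless stated, and the threshold is 0.05. The endothelial label was set against 12 markers: their summed level was 2518 to 2680 CPM in senescent CM and 1648 to 2085 CPM in control, with CLDN5 at 0 in all 6 libraries and EMCN at or near 0. PECAM1, the platelet endothelial adhesion receptor, was at 647, 748 and 737 CPM in senescent CM and 412, 474 and 641 CPM in control. Haematopoietic and smooth muscle markers (5 genes each) summed to under 20 CPM in all 6 libraries.

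Stromal RNA was followed with 11 MSC markers. Their summed level was 77.4, 79.8 and 78.6 CPM in senescent CM replicates 2 to 4, against 44.2, 54.9 and 49 CPM in control, and none was at 0. One of the 11, FAP, passed the threshold, at 52.1, 55.9 and 58.1 CPM in senescent CM and 23.8, 32.4 and 28.9 CPM in control. The other 10 did not: COL1A1, the main collagen of stromal cells, was at 7.08, 6.34 and 5.53 CPM in senescent CM and 5.91, 6.29 and 5.59 CPM in control, and TERT, the telomerase gene used to immortalise the MSC line, was at 1.97, 1.73 and 1.39 CPM in senescent CM and 1.9, 1.55 and 1.58 CPM in control. In replicate 1, which enters only the fit with all 4 replicates, the same 11 genes summed to 10060 CPM in senescent CM and 9430 CPM in control, with COL1A1 at 5368 CPM in senescent CM and 4111 CPM in control. In bulk RNA, fewer cells of a type and less RNA per cell cannot be told apart.

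**Figure D1:**
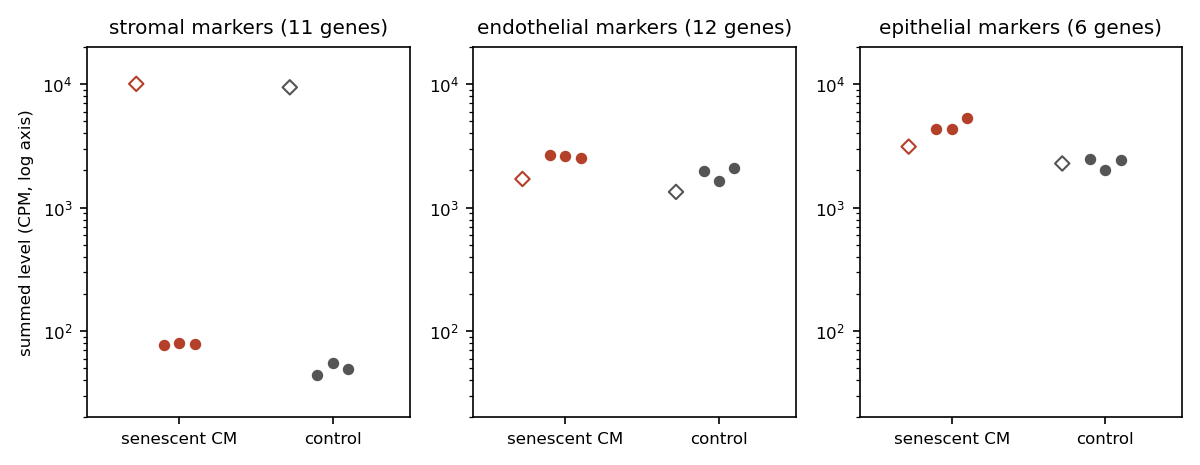
Summed level of stromal, endothelial and epithelial markers per library, in CPM on a log axis, for senescent CM and control; filled circles are replicates 2 to 4 and open diamonds replicate 1. Replicate 1 of both groups holds about 10060 and 9430 CPM of stromal markers, while the other libraries hold 44.2 to 79.8 CPM; epithelial markers stand higher in senescent CM than in control in replicates 2 to 4.

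Senescent CM changed 230 of 18015 genes tested (1.28%), of which 137 were higher (0.76%) and 93 lower (0.516%) than in control. Among them, 64 rose and 56 fell by more than 1 on the log2 scale, and 194 were protein-coding. The 2 groups' libraries did not overlap for 224 of the 230, against 1899 of all genes tested (10.5%). The calls come from the same libraries, so this separation is no separate support for them. The median log2 fold change of all genes was 0.005. For the gene lists below, the share called among all genes, 1.28%, is the share to compare with. Members and lists were chosen with earlier results of these data known, so a higher share in a list is no sign of enrichment. Without the replicate block 91 genes passed (0.505%), all of them among the 230. The block assumes that libraries with the same number belong together, which the labels do not state. Leaving out 1 library at a time gave 63 to 132 genes, so that each of the 6 libraries moved the count by over 1.5 times.

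**Figure D2:**
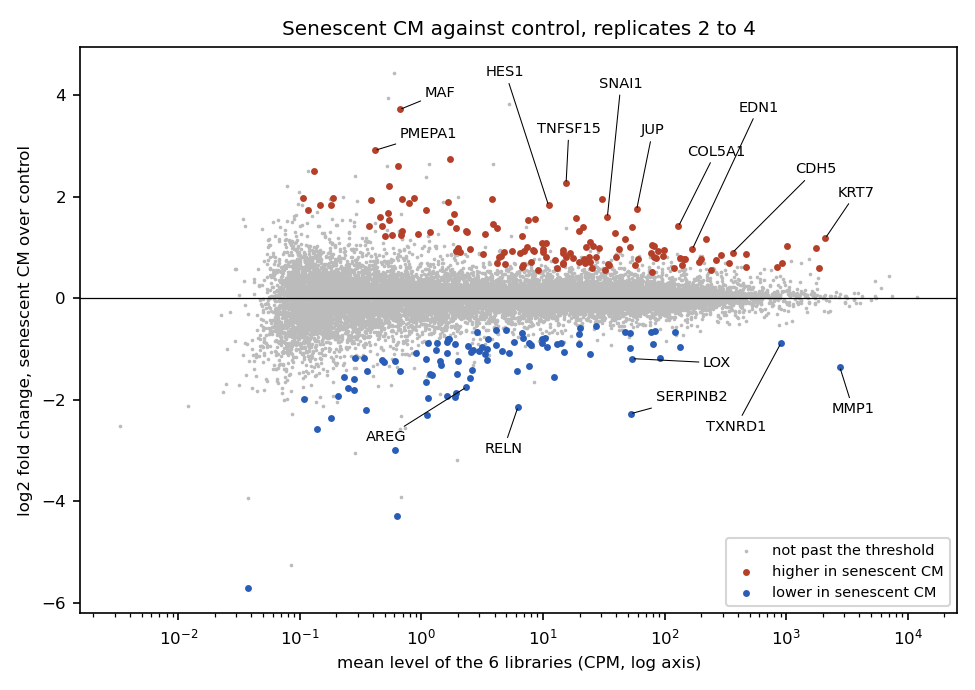
Log2 fold change of senescent CM over control (vertical) against the mean level of the 6 libraries in CPM (horizontal, log axis) for the 18015 genes tested. The 137 genes in red were higher and the 93 in blue lower in senescent CM past the threshold; grey points did not pass.

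The 28 largest named changes, 14 rises and 14 falls, held among the rises a TNF-family cytokine, a mesenchymal transition repressor, a Notch effector and a collagen chain, and among the falls a protease inhibitor, a collagenase and a matrix crosslinking enzyme. The naming rule took changed protein-coding genes that averaged 5 CPM or more in a group and showed no overlap between the groups' libraries, so that separation of the libraries is part of the choice. TNFSF15 (ENSG00000181634.8; chr9:114784635-114806126, minus strand), a cytokine of endothelial cells that binds the death receptor DR3, had the largest rise among genes that met the naming rule. It was at 23.2, 26.7 and 26.2 CPM in senescent CM, against 4.16, 8.75 and 3.72 CPM in control. Its log2 fold change was 2.27 ± 0.22 (adjusted p = 0.000121). SERPINB2 (ENSG00000197632.9; chr18:63871692-63903890, plus strand), the plasminogen activator inhibitor PAI-2, had the largest fall, with 19.3, 23 and 11.5 CPM in senescent CM and 70.1, 102 and 89.3 CPM in control. That was a log2 fold change of -2.28 ± 0.20 (adjusted p = 8.64e-05). For both genes every senescent CM library of replicates 2 to 4 lay clear of every control library of replicates 2 to 4. SERPINB2 shares 19.9% of its exon bases with the neighbouring gene SERPINB10 on the same strand. TNFSF15 was the 1 gene of 17 tested in the TNF superfamily to pass, and the median of that list was 0.14.

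The promoters of 4 changed genes are shown because each holds a match to a motif of a pathway whose genes are described below: the AP-1 motif for SERPINB2 and TNFSF15, the RBPJ motif of Notch signalling for HES1, and the antioxidant response element of NRF2 for TXNRD1. They were chosen after the matches were seen. Sequences are RefSeq windows of 300 bases (250 before and 50 after the annotated start, build GRCh38.p14), written 5′ to 3′ on the gene's strand, with the motif in capitals. The windows of SERPINB2 and TNFSF15 lie inside the GENCODE span of the gene, at a RefSeq start that is not its outer end. A single window per gene was used, so other starts, where a gene such as TXNRD1 has them, were not searched.
SERPINB2, chr18:63887455-63887754, plus strand: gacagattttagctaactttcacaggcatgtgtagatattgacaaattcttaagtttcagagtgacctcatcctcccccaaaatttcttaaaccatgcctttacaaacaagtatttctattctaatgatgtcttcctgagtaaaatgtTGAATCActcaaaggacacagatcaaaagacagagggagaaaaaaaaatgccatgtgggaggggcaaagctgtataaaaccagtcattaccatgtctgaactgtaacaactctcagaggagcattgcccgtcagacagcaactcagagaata
TNFSF15, chr9:114792481-114792780, minus strand: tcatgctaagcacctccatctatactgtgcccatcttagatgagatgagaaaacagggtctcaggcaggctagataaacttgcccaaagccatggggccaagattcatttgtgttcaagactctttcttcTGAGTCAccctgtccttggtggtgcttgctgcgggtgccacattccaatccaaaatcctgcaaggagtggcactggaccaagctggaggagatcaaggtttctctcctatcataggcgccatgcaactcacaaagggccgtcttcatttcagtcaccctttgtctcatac
HES1, chr3:194135898-194136197, plus strand: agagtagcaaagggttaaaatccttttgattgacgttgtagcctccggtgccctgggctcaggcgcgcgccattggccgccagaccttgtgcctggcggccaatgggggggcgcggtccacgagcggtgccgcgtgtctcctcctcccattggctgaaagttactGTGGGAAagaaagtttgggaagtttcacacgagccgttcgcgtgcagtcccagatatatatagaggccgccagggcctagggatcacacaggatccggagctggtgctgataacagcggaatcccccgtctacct
TXNRD1, chr12:104215529-104215828, plus strand: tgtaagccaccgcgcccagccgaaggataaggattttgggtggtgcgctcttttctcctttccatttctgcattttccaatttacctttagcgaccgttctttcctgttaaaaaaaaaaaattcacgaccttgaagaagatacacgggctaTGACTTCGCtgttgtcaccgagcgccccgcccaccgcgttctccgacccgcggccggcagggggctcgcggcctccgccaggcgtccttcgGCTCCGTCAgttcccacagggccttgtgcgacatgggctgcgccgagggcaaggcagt

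Of the 230 changed genes, 150 have such a window. A set of 6 motifs was searched on both strands. AP-1 (TGANTCA) was in 7 of 91 windows of genes that rose (7.69%) and in 9 of 59 of genes that fell (15.3%), against 5.23% of tested genes and 7.76% of all windows. RBPJ (GTGGGAA) was in 7.69% of windows of genes that rose and 6.78% of genes that fell, against 5.69% of tested genes and 6.28% of all windows. The antioxidant response element (TGACNNNGC) was in 17.6% of windows of genes that rose and 22% of genes that fell, against 15% of tested genes and 13.6% of all windows. The E-box bound by SNAI1 (CACCTG) was in 22% of windows of genes that rose and 23.7% of genes that fell, against 17.7% of tested genes and 20.6% of all windows. Both SMAD motifs were absent from the changed genes' windows, against 0.121% of tested genes and 0.201% of all windows for GTCTAGAC and 0.216% and 0.315% for AGCCAGACA. At shares this low, absence from 150 windows cannot show a lack of SMAD sites. Matches to AP-1 and the antioxidant response element overlapped each other in 0.564% of all windows, and the E-box overlapped AP-1 in 0.19%, RBPJ in 0.205% and the antioxidant response element in 0.275%; the other pairs did not overlap. These shares describe letters in short windows and were not tested.

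A few genes of TGF-beta signalling and mesenchymal transition rose in senescent CM. SNAI1 (ENSG00000124216.4; chr20:49982999-49988886, plus strand), the zinc-finger repressor that starts mesenchymal transition, was at 49.5, 44.8 and 57.2 CPM in senescent CM, against 20.7, 10.7 and 19.9 CPM in control. In replicates 2 to 4 the lowest senescent CM library was more than 2 times the highest control library. Its log2 fold change was 1.60 ± 0.18 (adjusted p = 0.000437), and it was the 1 of 12 transition factors tested that passed. In the TGF-beta and BMP list, 4 of 31 genes rose and none fell (12.9% called, against 1.28% of all genes). The median was 0.42, against 0.005 for all genes. Between same-numbered libraries the list median was 0.256, 0.538 and 0.326 for replicates 2, 3 and 4, and -0.128 for replicate 1. The 4 genes that rose were feedback inhibitors and a receptor. PMEPA1, an inhibitor of SMAD signalling that TGF-beta induces, was barely expressed, at 0.629, 0.425 and 1.15 CPM in senescent CM and 0.092, 0.0944 and 0.0974 CPM in control (log2 fold change 2.91 ± 0.44, adjusted p = 0.00404). SMAD7, the inhibitory SMAD, averaged 13 ± 2.74 CPM in senescent CM and 6.87 ± 2.55 CPM in control. SKIL, a repressor of SMAD target genes, averaged 252 ± 40.9 CPM in senescent CM and 149.7 ± 42 CPM in control. ACVRL1, the endothelial receptor for BMP9 and BMP10, averaged 332 ± 38.7 CPM in senescent CM and 197 ± 33.1 CPM in control. The calls of SMAD7, SKIL and ACVRL1 were lost without the block (adjusted p = 0.273, 0.13 and 0.0946). They were also lost in at least 5 of the 6 fits that leave out 1 library, with adjusted p up to 0.129, 0.178 and 0.163.

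Further transcription factors rose with SNAI1. FOXS1, a forkhead factor, was at 5.17, 5.08 and 7.93 CPM in senescent CM and 1.72, 1.31 and 1.67 CPM in control (log2 fold change 1.96 ± 0.27, adjusted p = 0.00254). HIC1, a transcriptional repressor, was at 12.9, 9.74 and 15.6 CPM in senescent CM and 6.91, 2.82 and 3.66 CPM in control (log2 fold change 1.56 ± 0.25, adjusted p = 0.0061). HIC1 shares 29.8% of its exon bases with SMG6 on the other strand, and its call was lost without control replicate 4 (adjusted p = 0.0651) and without senescent CM replicate 4. MAF, a bZIP factor named after its values were seen, was low everywhere, at 1.26, 1.13 and 1.31 CPM in senescent CM, against 0.156, 0.0734 and 0.0541 CPM in control. Its log2 fold change was 3.72 ± 0.32 (adjusted p = 8.64e-05).

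In the Notch pathway HES1 was the 1 of 23 genes tested that passed. HES1 (ENSG00000114315.4; chr3:194136145-194138732, plus strand), the repressor through which Notch acts and whose promoter is shown above, was at 15.2, 15.4 and 21 CPM in senescent CM, against 5.96, 4.27 and 4.73 CPM in control. All 3 senescent CM libraries were more than 2 times any control library of replicates 2 to 4. The log2 fold change was 1.83 ± 0.28 (adjusted p = 0.00486), and the median of the list was 0.22.

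Some ligands that act on vessels rose. PDGFB, the growth factor with which endothelial cells recruit pericytes, was at 27.4, 20.8 and 43.7 CPM in senescent CM and 14.6, 7.11 and 13.1 CPM in control (log2 fold change 1.41 ± 0.27, adjusted p = 0.017). APLN, the apelin peptide of tip cells, averaged 373 ± 28.6 CPM in senescent CM and 209.8 ± 43.1 CPM in control (log2 fold change 0.85 ± 0.15, adjusted p = 0.00984). PGF, placental growth factor, averaged 169.8 ± 12.4 CPM in senescent CM and 109 ± 4.71 CPM in control (log2 fold change 0.65 ± 0.15, adjusted p = 0.0456). These were 3 of 28 sprouting and tip cell genes tested (10.7% called, against 1.28% of all genes), with none lower and a median of 0.29. EFNA1, a membrane-bound ligand of Eph receptors, was at 1.83, 2.31 and 3.5 CPM in senescent CM and 0.8, 1.03 and 0.844 CPM in control. It rose by 1.50 ± 0.22 on the log2 scale (adjusted p = 0.00385) and was the 1 of 12 ephrins and receptors to pass. In the same list the median was 0.47, and 10 of 12 fold changes were above 0. PDGFB and PGF did not pass without the block (adjusted p = 0.0857 and 0.0789). PDGFB lost its call without control replicate 3 or 4 or senescent CM replicate 3 or 4 (up to 0.139), PGF whichever of the 6 libraries was left out (up to 0.233), and APLN without control replicate 3 or senescent CM replicate 3 or 4 (up to 0.059).

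**Figure D3:**
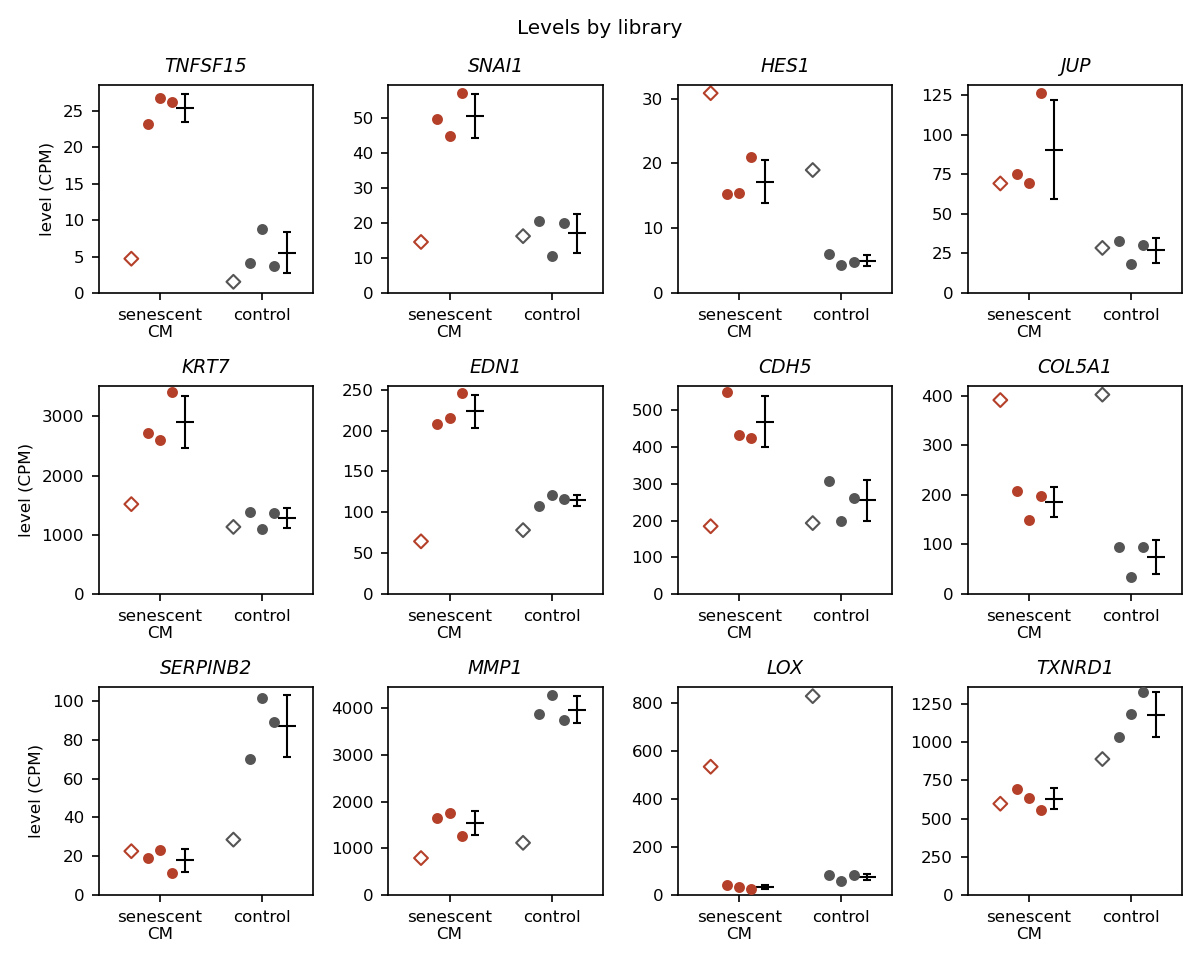
Levels in CPM of 12 genes per library in senescent CM and control; filled circles are replicates 2 to 4, the bar is their mean with SD, and open diamonds are replicate 1, which was not in the main tests. The first 8 genes (TNFSF15 to COL5A1) were higher and the last 4 (SERPINB2 to TXNRD1) lower in senescent CM in replicates 2 to 4, with no overlap between groups.

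At the cell junctions JUP and CDH5 rose, 2 of 18 junction genes tested (11.1% called, against 1.28% of all genes). JUP (ENSG00000173801.17), plakoglobin, which ties cadherins to the cytoskeleton, was at 75.3, 69.6 and 126 CPM in senescent CM, against 33.2, 18.2 and 30.1 CPM in control. Senescent CM replicate 4 stood highest, and the groups did not overlap. The log2 fold change was 1.75 ± 0.31 (adjusted p = 0.0106). CDH5, VE-cadherin, the adhesion molecule of endothelial junctions, was at 549.1, 434 and 425 CPM in senescent CM, against 307, 198 and 260.4 CPM in control, with a log2 fold change of 0.90 ± 0.19 (adjusted p = 0.0311). CDH5 was also the 1 of 27 endothelial identity genes tested that passed. That list had 22 of 27 fold changes above 0 and a median of 0.35. CDH5 did not pass without the block (adjusted p = 0.143) or whichever of the 6 libraries was left out (up to 0.218), and JUP did not pass without replicate 3 or 4 of either group (up to 0.0831).

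Several keratins of the hybrid line rose. Of 13 epithelial genes tested, 5 rose and none fell (38.5% called, against 1.28% of all genes). The median was 0.22, with 7 of 13 fold changes above 0. The list's members were chosen with earlier results of these data known, so this share is no sign of enrichment. KRT7 (ENSG00000135480.16), a keratin of simple epithelia, was at 2722, 2597 and 3408 CPM in senescent CM, against 1393, 1095 and 1371 CPM in control. It was among the most abundant of the changed genes, and its log2 fold change was 1.18 ± 0.17 (adjusted p = 0.00388). KRT8 and KRT18, the keratin pair of simple epithelia, rose as well: KRT8 averaged 607 ± 119.5 CPM in senescent CM and 331 ± 38.5 CPM in control, and KRT18 1131 ± 18.8 CPM in senescent CM and 699 ± 62.5 CPM in control (log2 fold change 0.87 ± 0.15 for KRT8 and 0.70 ± 0.16 for KRT18). KRT80 rose by 0.80 ± 0.15 and KRT81, at 0.638, 0.972 and 1.05 CPM in senescent CM and 0.147, 0.273 and 0.162 CPM in control, by 2.21 ± 0.37 on the log2 scale. KRT19, a further simple keratin, did not pass and was near 0, averaging 0.0817 ± 0.0318 CPM in senescent CM and 0.141 ± 0.0463 CPM in control. EPCAM, an epithelial adhesion molecule, did not pass and was at 0.648, 0.753 and 0.893 CPM in senescent CM and 0.846, 1.12 and 1.1 CPM in control, and CDH1 was at 0 in all 6 libraries. KRT18 shares 16.3% of its exon bases with KRT8 on the other strand, and both have near-identical copies elsewhere, so their values are uncertain. KRT18 and KRT80 did not pass without the block (adjusted p = 0.112 and 0.279). Single libraries left out ended the calls of KRT18 (all 6 libraries, up to 0.242), KRT80 (all but control replicate 2, up to 0.0999), KRT8 (control replicate 3 or 4 or senescent CM replicate 4, up to 0.088) and KRT81 (replicate 4 of either group, up to 0.0677).

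Among genes of vascular tone EDN1 and APLN rose and PTGS1 fell, 3 of 13 tested (23.1% called, against 1.28% of all genes). EDN1 (ENSG00000078401.7), the vasoconstrictor endothelin-1, was at 209, 216 and 246 CPM in senescent CM, against 107, 121 and 116 CPM in control. In replicates 2 to 4 every senescent CM library was above every control library, and the log2 fold change was 0.97 ± 0.14 (adjusted p = 0.00337). Replicate 1 went the other way, at 64.5 CPM in senescent CM and 78.2 CPM in control. With all 4 replicates in the fit EDN1 did not pass (adjusted p = 0.273). That fit kept the calls of 25 of 76 named genes. Other genes that did not pass there included SERPINB2, SNAI1, HES1, KRT7 and LOX (adjusted p = 0.0734, 0.0767, 0.0799, 0.108 and 0.0987). PTGS1, the cyclooxygenase COX-1, was at 2.3, 2.03 and 1.86 CPM in senescent CM and 4.26, 5.1 and 5.05 CPM in control (log2 fold change -1.21 ± 0.21, adjusted p = 0.00984). It was the 1 of 15 prostaglandin genes that passed, and its call was lost without replicate 3 or 4 of either group (up to 0.0798).

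Coagulation and fibrinolysis genes moved in both directions, with 5 of 20 higher and 1 lower (30% called, against 1.28% of all genes). Their median was 0.09. The gene that fell was SERPINB2, described above. F2RL1, the protease-activated receptor PAR2, was at 67, 76.2 and 84.5 CPM in senescent CM, against 39, 49.7 and 45.7 CPM in control (log2 fold change 0.76 ± 0.11, adjusted p = 0.00404). F2RL3, the thrombin receptor PAR4, was at 1.06, 1.02 and 0.904 CPM in senescent CM and 0.478, 0.283 and 0.433 CPM in control and rose by 1.34 ± 0.27 on the log2 scale (adjusted p = 0.0223). PLAU, the urokinase plasminogen activator, averaged 289 ± 30.2 CPM in senescent CM and 197 ± 21.6 CPM in control (log2 fold change 0.56 ± 0.12). SERPINE2, the protease inhibitor nexin-1, averaged 27.1 ± 2.27 CPM in senescent CM and 16.8 ± 1.61 CPM in control (log2 fold change 0.69 ± 0.12). TFPI2, a Kunitz-type protease inhibitor, averaged 28.9 ± 3.32 CPM in senescent CM and 17.8 ± 4.52 CPM in control (log2 fold change 0.73 ± 0.13). PLAU, SERPINE2 and TFPI2 did not pass without the block (adjusted p = 0.105, 0.0576 and 0.301). All 5 that rose lost their call in at least 1 fit without a library: F2RL1 only without control replicate 4 (0.0533), TFPI2 without control replicate 2 or 4 or senescent CM replicate 4 (up to 0.0806), SERPINE2 without control replicate 2 or 3 or senescent CM replicate 3 or 4 (up to 0.074), and PLAU and F2RL3 whichever of the 6 was left out (up to 0.179 and 0.149).

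Matrix proteases moved in both directions. MMP1 (ENSG00000196611.6), the interstitial collagenase, was at 1639, 1747 and 1258 CPM in senescent CM, against 3871, 4288 and 3739 CPM in control. The groups lay far apart, with a log2 fold change of -1.36 ± 0.13 (adjusted p = 0.000113). MMP10, stromelysin-2, was at 0.88, 1.23 and 0.944 CPM in senescent CM and 1.57, 1.87 and 3.3 CPM in control (log2 fold change -1.08 ± 0.21). MMP2, the gelatinase that cleaves basement membrane collagen, stood at 1362, 1250 and 1453 CPM in senescent CM and 786, 483 and 748 CPM in control, a rise of 1.04 ± 0.19 (adjusted p = 0.0125). In all, 1 of 17 metalloproteinases and inhibitors rose and 2 fell (17.6% called, against 1.28% of all genes). MMP2 and MMP10 did not pass without the block (adjusted p = 0.053 and 0.116). MMP2 lost its call without replicate 3 or 4 of either group (up to 0.0836), and MMP10 without control replicate 4 or senescent CM replicate 2 or 4 (up to 0.147).

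Among matrix genes COL5A1 and EFEMP1 rose and LOX fell. COL5A1, the alpha-1 chain of collagen V, was at 208, 150.3 and 198 CPM in senescent CM, against 94.2, 34.2 and 94.7 CPM in control, with control replicate 3 the lowest. Its log2 fold change was 1.42 ± 0.25 (adjusted p = 0.0103), and it was the 1 of 17 collagens tested that passed. EFEMP1, fibulin-3, averaged 2311 ± 285 CPM in senescent CM and 1171 ± 132 CPM in control (log2 fold change 0.99 ± 0.14, adjusted p = 0.00385). LOX, which crosslinks collagen and elastin, was at 39.9, 33.3 and 25.2 CPM in senescent CM, against 83.5, 59.4 and 83.3 CPM in control (log2 fold change -1.19 ± 0.16, adjusted p = 0.00261). COL5A1, FAP and LOX are also members of the stromal identity list, of which 2 of 23 rose and 1 fell; the share of all counts in that list was 0.0658 to 0.0732% in senescent CM and 0.0552 to 0.0667% in control, and the part of stromal RNA in these 3 results was not tested. In replicate 1, where stromal RNA is plentiful, COL5A1 was at 391 CPM in senescent CM and 402 CPM in control. None of 22 laminin, nidogen and basement membrane genes passed; the nearest, COL4A2, a chain of collagen IV, averaged 77.2 ± 8.91 CPM in senescent CM and 45.2 ± 16.1 CPM in control (adjusted p = 0.0509). COL5A1 did not pass without the block (adjusted p = 0.16) or without control replicate 3 or senescent CM replicate 3 (up to 0.074).

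Of 33 integrin and focal adhesion genes 2 rose (6.06% called), and of 22 CCN and YAP target genes 1 rose and 1 fell (9.09%). Among all genes 1.28% were called. NEDD9, a scaffold of focal adhesions, was at 13.2, 13.5 and 13.2 CPM in senescent CM, against 6.59, 5.85 and 6.48 CPM in control (log2 fold change 1.08 ± 0.15, adjusted p = 0.00218). ITGB3, the beta-3 integrin, rose by 0.89 ± 0.20, but it shares 51.6% of its exon bases with another gene on the same strand and did not pass without the block (adjusted p = 0.54). CCN1 rose by 0.62 ± 0.14 and CCN3 changed by -0.92 ± 0.21 on the log2 scale, both matricellular proteins. Neither passed without the block (adjusted p = 0.42 and 0.0946), and ITGB3, CCN1 and CCN3 lost their calls whichever of the 6 libraries was left out (up to 0.304, 0.235 and 0.255).

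Genes of the EGF receptor family mostly fell where they passed. Of 12 genes of the receptor family 3 fell and 1 rose (33.3% called, against 1.28% of all genes), with a median of -0.15. AREG, the ligand amphiregulin, was at 1.28, 1.25 and 0.691 CPM in senescent CM, against 3.6, 4.01 and 3.15 CPM in control (log2 fold change -1.76 ± 0.19, adjusted p = 0.000352). NRG2, a neuregulin, was at 1.02, 1.31 and 0.731 CPM in senescent CM and 3.95, 2.07 and 2.78 CPM in control (log2 fold change -1.49 ± 0.28, adjusted p = 0.0157). ERRFI1, which inhibits the activated EGF receptor, was at 37.7, 32.5 and 33.5 CPM in senescent CM and 62.2, 74.9 and 67.9 CPM in control (log2 fold change -0.97 ± 0.15, adjusted p = 0.00544). The ligand TGFA went the other way, averaging 17.9 ± 0.772 CPM in senescent CM and 11.2 ± 1.61 CPM in control (log2 fold change 0.69 ± 0.13, adjusted p = 0.0134). PTPRR, a phosphatase of ERK, was at 9.64, 10.2 and 8.36 CPM in senescent CM and 15.2, 25.1 and 19.9 CPM in control (log2 fold change -1.07 ± 0.18, adjusted p = 0.00734). In the list of immediate early and MAPK feedback genes, 2 of 28 passed (7.14% called, against 1.28% of all genes). DUSP1, a phosphatase of MAP kinases, averaged 101 ± 11.9 CPM in senescent CM and 54.7 ± 7.31 CPM in control (log2 fold change 0.88 ± 0.14, adjusted p = 0.00471). SPRY2, an inhibitor of receptor tyrosine kinase signalling, averaged 36.3 ± 8.79 CPM in senescent CM and 57.5 ± 7.32 CPM in control (log2 fold change -0.67 ± 0.15). SPRY2 and PTPRR did not pass without the block (adjusted p = 0.155 and 0.0539). Leaving out single libraries ended the calls of SPRY2 (all 6, up to 0.266), TGFA (all but control replicate 3, up to 0.1), NRG2 (replicate 2 or 4 of either group, up to 0.118), PTPRR (control replicate 4 or senescent CM replicate 3 or 4, up to 0.0661) and ERRFI1 (senescent CM replicate 3 or 4, up to 0.0658).

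Secretory factors that senescent cells are known to release moved in both directions in the exposed endothelial cells. Of 47 tested, 5 rose and 5 fell (21.3% called, against 1.28% of all genes), with a median of 0.24. MMP1, MMP10, SERPINB2 and AREG, above, were 4 of the 5 that fell. The other was STC1, a secreted glycoprotein, at 71.6, 71.9 and 28.6 CPM in senescent CM and 137, 133 and 106 CPM in control, with senescent CM replicate 4 the lowest (log2 fold change -1.18 ± 0.22, adjusted p = 0.0158). CCL2, the monocyte chemokine, averaged 30.1 ± 3.82 CPM in senescent CM and 17.4 ± 4.27 CPM in control (log2 fold change 0.82 ± 0.15). With young CM, CCL2 averaged 31.8 ± 7.91 CPM, and senescent CM minus young CM was -0.08 ± 0.15 on the log2 scale (adjusted p = 0.83). ICAM1, the leukocyte adhesion receptor, averaged 9.03 ± 0.377 CPM in senescent CM and 4.83 ± 1.15 CPM in control (log2 fold change 0.92 ± 0.19). GDF15, a stress cytokine, averaged 143 ± 3.41 CPM in senescent CM and 94.6 ± 10.2 CPM in control (log2 fold change 0.60 ± 0.14). ANGPTL4, an inhibitor of lipoprotein lipase, averaged 184 ± 28.4 CPM in senescent CM and 108 ± 24 CPM in control (log2 fold change 0.77 ± 0.17). PLAU was the remaining gene that rose; it shares 31.1% of its exon bases with a gene on the other strand, and ICAM1 shares 23.6%. STC1, CCL2, ICAM1, GDF15 and ANGPTL4 did not pass without the block (adjusted p = 0.119, 0.198, 0.0857, 0.097 and 0.191). ICAM1, GDF15 and ANGPTL4 lost their calls whichever library was left out (up to 0.192, 0.233 and 0.258), CCL2 without control replicate 2 or 4 or senescent CM replicate 3 or 4 (up to 0.118), and STC1 without any control library or senescent CM replicate 4 (up to 0.0898).

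Some NF-kB and interferon targets passed in replicates 2 to 4. In the NF-kB feedback and adhesion list 13% were called, against 1.28% of all genes. Of 23 NF-kB feedback and adhesion genes, ICAM1 and CCL2 rose and TRAF1, a TNF receptor adaptor at 1.52, 1.34 and 0.823 CPM in senescent CM and 2.39, 2.04 and 1.89 CPM in control, fell (log2 fold change -0.80 ± 0.18). Of 40 interferon-stimulated genes, 2 rose and none fell (5% called, against 1.28% of all genes), with a median of 0.16. IFI6, a mitochondrial survival protein, was at 48, 56.2 and 90.9 CPM in senescent CM, against 28.8, 28.4 and 28.6 CPM in control, with senescent CM replicate 4 the highest (log2 fold change 1.18 ± 0.22, adjusted p = 0.0142). OAS2, which makes 2-5A in response to double-stranded RNA, averaged 17.8 ± 3.33 CPM in senescent CM and 11.2 ± 1.61 CPM in control (log2 fold change 0.67 ± 0.14, adjusted p = 0.0294). TRAF1 and OAS2 did not pass without the block (adjusted p = 0.237 and 0.168) or whichever library was left out (up to 0.23 and 0.182), and IFI6 did not pass without control replicate 3 or 4 or senescent CM replicate 4 (up to 0.0953).

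The oxidative stress genes that passed all fell. Of 24 NRF2 and oxidative stress genes tested, 3 fell and none rose (12.5% called, against 1.28% of all genes). In that list 4 fold changes were above 0, and the median was -0.27. TXNRD1 (ENSG00000198431.16), thioredoxin reductase 1, whose promoter is shown above, was at 694, 635 and 556 CPM in senescent CM, against 1035, 1181 and 1325 CPM in control. The log2 fold change was -0.88 ± 0.15 (adjusted p = 0.0101). SLC7A11, the cystine importer that feeds glutathione synthesis, was at 94.5, 82.6 and 91.9 CPM in senescent CM and 159.5, 163 and 210 CPM in control (log2 fold change -0.97 ± 0.14, adjusted p = 0.00388). AKR1B10, an aldo-keto reductase, averaged 4.09 ± 1.05 CPM in senescent CM and 7.51 ± 2.27 CPM in control (log2 fold change -0.86 ± 0.16, adjusted p = 0.013). AKR1B10 did not pass without the block (adjusted p = 0.284) or when any library but control replicate 2 was left out (up to 0.109), and TXNRD1 did not pass without replicate 3 or 4 of either group (up to 0.0648).

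Cholesterol export genes rose. Of 27 genes of cholesterol synthesis, uptake and export, 3 rose and none fell (11.1% called, against 1.28% of all genes). The median was -0.02. ABCA1 and ABCG1, the transporters that hand cholesterol to lipoproteins, were low: ABCA1 was at 3.35, 2.27 and 2.9 CPM in senescent CM and 1.08, 0.745 and 0.855 CPM in control, and ABCG1 at 1.61, 1.65 and 1.7 CPM in senescent CM and 0.699, 0.451 and 0.379 CPM in control. Their log2 fold changes were 1.67 ± 0.29 and 1.73 ± 0.26 (adjusted p = 0.00924 and 0.00404). INSIG1, which holds the sterol sensor SCAP in the endoplasmic reticulum, averaged 30.6 ± 6.38 CPM in senescent CM and 20 ± 1.16 CPM in control (log2 fold change 0.60 ± 0.12, adjusted p = 0.02). Other targets of the liver X receptor were looked up after these values were seen. LPCAT3, a lysophospholipid acyltransferase, averaged 18.9 ± 2.55 CPM in senescent CM and 10.3 ± 1.84 CPM in control (log2 fold change 0.88 ± 0.17, adjusted p = 0.0183), but shares 65.6% of its exon bases with EMG1 on the other strand. MYLIP, which degrades the LDL receptor, and SREBF1, a lipogenic factor, had fold changes of 0.64 ± 0.16 and 0.98 ± 0.26 and did not pass (adjusted p = 0.0623 and 0.097). The receptor genes NR1H3 and NR1H2 had fold changes of -0.01 ± 0.20 and -0.08 ± 0.14. INSIG1 and LPCAT3 did not pass without the block (adjusted p = 0.148 and 0.0576), INSIG1 lost its call without replicate 2 or 4 of either group (up to 0.173), and ABCA1 without control replicate 3 or 4 or senescent CM replicate 4 (up to 0.0694).

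Stress-response lists gave 1 or 2 calls each. The shares called were 8% for the integrated stress response, 5% for the unfolded protein response and 5.71% for hypoxia and glycolysis. Among all genes 1.28% were called. DDIT4, an inhibitor of the growth kinase mTORC1, was at 8.83, 9.32 and 15.8 CPM in senescent CM, against 3.93, 2.96 and 4.63 CPM in control (log2 fold change 1.53 ± 0.23, adjusted p = 0.00406), and 41.2% of its exon bases are shared with an antisense gene. HSPA5, the chaperone BiP, averaged 1016 ± 119 CPM in senescent CM and 669.8 ± 151 CPM in control (log2 fold change 0.62 ± 0.14, adjusted p = 0.0467) and was the 1 of 20 unfolded protein response genes that passed. It did not pass without the block (adjusted p = 0.315) or whichever library was left out (up to 0.298). CA12, a carbonic anhydrase, and ANGPTL4 were the 2 of 35 hypoxia and glycolysis genes that passed, and CA12 had a log2 fold change of -0.63 ± 0.14. It did not pass without the block (adjusted p = 0.123) or whichever library was left out (up to 0.256). GDF15 was the 1 of 30 p53 targets that passed (3.33% called, against 1.28% of all genes). WNT16, a WNT ligand at 0.958, 0.814 and 0.254 CPM in senescent CM and 1.82, 3.63 and 2.32 CPM in control, was the 1 of 15 WNT genes that passed, with a log2 fold change of -1.93 ± 0.31 (adjusted p = 0.0061), and lost its call without senescent CM replicate 3 (0.0521).

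The remaining named risers have varied roles. AMTN, amelotin, known from tooth enamel, was at 39.8, 57.7 and 45.7 CPM in senescent CM, against 10.9, 18.9 and 9.08 CPM in control (log2 fold change 1.96 ± 0.23, adjusted p = 0.000535). ALDH1A1, which makes retinoic acid, was at 61.3, 72 and 101 CPM in senescent CM and 25.4, 31.8 and 31.4 CPM in control (log2 fold change 1.40 ± 0.15, adjusted p = 0.000352). MYLK2, the skeletal muscle form of myosin light chain kinase, was at 25.5, 27.2 and 31 CPM in senescent CM and 9.44, 9 and 9.85 CPM in control (log2 fold change 1.57 ± 0.17, adjusted p = 0.000382). It was the 1 of 11 smooth muscle list genes that passed, although it is the skeletal form. DHRS2, a short-chain dehydrogenase, was at 21.8, 21.5 and 42.3 CPM in senescent CM and 10.9, 8.49 and 13.9 CPM in control (log2 fold change 1.33 ± 0.14, adjusted p = 0.00021). CHST1, a sulfotransferase of keratan sulfate, averaged 5.7 ± 1.3 CPM in senescent CM and 2.07 ± 0.568 CPM in control (log2 fold change 1.47 ± 0.26, adjusted p = 0.0103) and lost its call without replicate 3 or 4 of either group (up to 0.0768).

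The remaining named genes that fell include secreted, surface and regulatory proteins. RELN, reelin, a secreted glycoprotein best known from neuronal migration, was at 3.39, 2.5 and 1.23 CPM in senescent CM, against 11.9, 9.7 and 8.62 CPM in control (log2 fold change -2.14 ± 0.19, adjusted p = 8.64e-05). MAP3K7CL was at 5.98, 7.13 and 5.41 CPM in senescent CM and 15.5, 24.4 and 15.4 CPM in control (log2 fold change -1.54 ± 0.18, adjusted p = 0.000735). FGF1, an acidic fibroblast growth factor, was at 17.1, 18.9 and 10.4 CPM in senescent CM and 28.2, 43 and 27.4 CPM in control (log2 fold change -1.09 ± 0.20, adjusted p = 0.0118). DPP4, a peptidase of the cell surface, was at 3.72, 3.66 and 1.78 CPM in senescent CM and 6.28, 6.45 and 5.8 CPM in control (log2 fold change -1.05 ± 0.18, adjusted p = 0.0101). CIITA, the master activator of MHC class II genes, HOPX, a homeodomain protein that binds no DNA, and GCKR, the glucokinase regulator, had log2 fold changes of -1.33 ± 0.31, -0.95 ± 0.20 and -0.92 ± 0.20 (adjusted p = 0.0483, 0.0288 and 0.0381). CIITA shares 11.5% of its exon bases with genes on its own strand and 12.4% with genes on the other strand. FGF1, DPP4, CIITA, HOPX and GCKR did not pass without the block (adjusted p = 0.131, 0.0553, 0.126, 0.202 and 0.131). Leaving out single libraries ended the calls of HOPX (all 6, up to 0.2), GCKR (all but senescent CM replicate 2, up to 0.211), CIITA (all but control replicate 3, up to 0.22), FGF1 (replicate 3 or 4 of either group, up to 0.1) and DPP4 (control replicate 4, 0.0713).

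Of the 39 gene lists, 8 had no member past the threshold and 4 of those describe basic cell functions. None of 52 cell cycle genes passed and their median was -0.05; the same held for 79 cytosolic ribosomal protein genes (median 0.06), 72 nuclear genes of oxidative phosphorylation (0.01) and 13 genes of the mitochondrial genome (-0.03). Ribosomal protein genes took 6.93 to 9.46% of counts in senescent CM and 7.11 to 10.5% in control, with replicate 3 the highest in both groups. Mitochondrial transcripts took 2.26 to 2.62% in senescent CM and 1.88 to 3.2% in control. The other 4 lists were the basement membrane genes above, 16 KLF2 and KLF4 flow-response genes, 10 aryl hydrocarbon receptor targets and 4 haematopoietic genes. THBD, thrombomodulin, a flow-response gene, averaged 149.9 ± 68.2 CPM in senescent CM and 241 ± 109 CPM in control, with overlapping libraries and an adjusted p of 0.603.

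**Figure D4:**
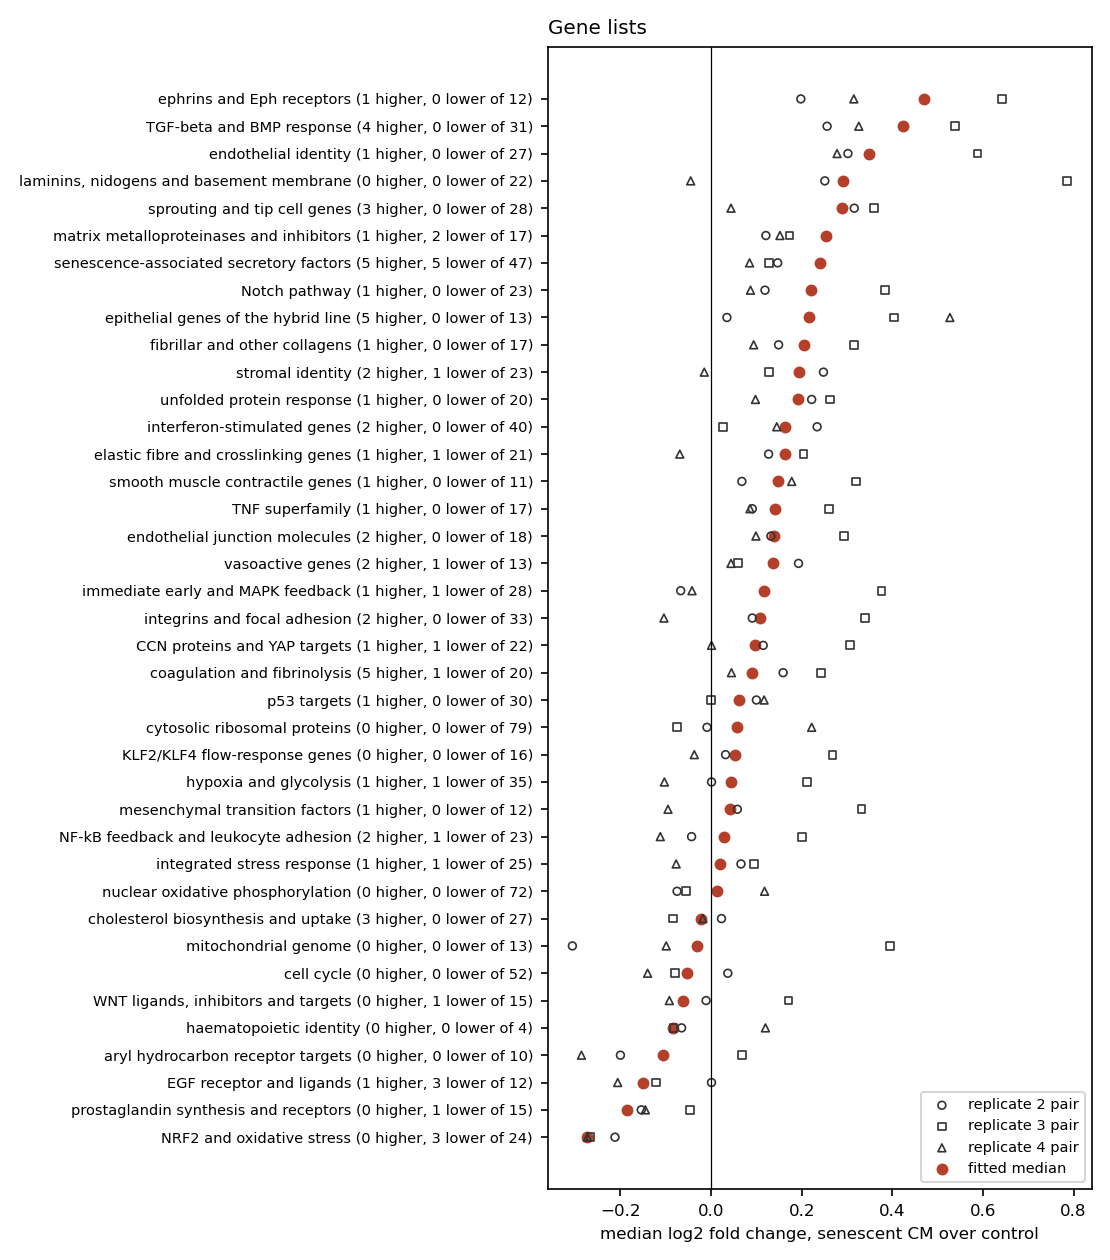
Median log2 fold change of senescent CM over control of the tested members of each gene list. Red circles are the fitted medians and open symbols the medians of the same-numbered pairs (replicates 2, 3 and 4), and the count of members past the threshold stands beside each name. TGF-beta, ephrin and endothelial lists have fitted medians above 0.3, the NRF2 list one of -0.27, and the pairs differ among themselves most for the basement membrane and mitochondrial lists.

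Senescent CM was also set against young CM in the same fit. The MSCs behind the 2 media differ in mitomycin C treatment, and 10 days after it are recorded for senescent CM alone. Effects of senescence, of the drug and of time in culture therefore cannot be told apart here. Only 7 genes passed (0.0389% of 18015), all higher in senescent CM, although 1952 genes had an unadjusted p under 0.05. SNAI1 was at 49.5, 44.8 and 57.2 CPM in senescent CM and 21.8, 18.8 and 24.1 CPM in young CM (log2 fold change 1.22 ± 0.18, adjusted p = 0.0212). COL5A1 was at 208, 150.3 and 198 CPM in senescent CM and 65.4, 45.8 and 77.9 CPM in young CM (log2 fold change 1.57 ± 0.25, adjusted p = 0.0427). LIPG, endothelial lipase, was at 26.5, 26.3 and 36.5 CPM in senescent CM and 10.9, 9.53 and 13.1 CPM in young CM (log2 fold change 1.39 ± 0.15, adjusted p = 0.00232). NEDD9 was at 13.2, 13.5 and 13.2 CPM in senescent CM and 5.81, 4.88 and 5.26 CPM in young CM (log2 fold change 1.31 ± 0.15, adjusted p = 0.00232). PCDH1, a protocadherin of cell contacts, was at 116, 107 and 104 CPM in senescent CM and 52.3, 41.1 and 49.8 CPM in young CM (log2 fold change 1.18 ± 0.15, adjusted p = 0.00563). MAF rose by 2.62 ± 0.30 on the log2 scale over young CM (adjusted p = 0.00232). All 7 were also higher than in control, where LIPG did not pass without the block (adjusted p = 0.171). Genes with large changes against control did not pass here, such as TNFSF15, with 14.8, 17 and 13 CPM in young CM (difference 0.77 ± 0.21, adjusted p = 0.248), SERPINB2, with 37.8, 44.8 and 36.1 CPM (-1.17 ± 0.20, adjusted p = 0.0559), and KRT7 (0.34 ± 0.17, adjusted p = 0.461). A p that misses the threshold does not show that the 2 media acted alike. DESeq2 called 137 genes in the same comparison; edgeR called 3 without the replicate block (MAF, NEDD9 and PCDH1), 0 with only the 2 groups fitted, and 0 to 6 when 1 library was left out. The call of SNAI1 and that of COL5A1 against young CM were lost whichever of the 6 libraries was left out, that of PCDH1 without replicate 3 of either medium, and those of LIPG, MAF and NEDD9 without young CM replicate 3.

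Set against control on its own, young CM changed 6 genes (0.0333%), 5 higher (0.0278%) and 1 lower (0.00555%), with 1592 at an unadjusted p under 0.05. This comparison shares the control libraries with the main one, so their fold changes are given side by side and not related to each other. TNFSF15 rose by 1.50 ± 0.21 with young CM, against 2.27 ± 0.22 with senescent CM, and APLN rose by 0.94 ± 0.15 with young CM, against 0.85 ± 0.15 with senescent CM. RELN changed by -1.56 ± 0.18 with young CM and -2.14 ± 0.19 with senescent CM, and SNAI1 by 0.38 ± 0.18 with young CM (adjusted p = 0.557) and 1.60 ± 0.18 with senescent CM. CCL2 rose by 0.90 ± 0.16 with young CM (adjusted p = 0.0733), against 0.82 ± 0.15 with senescent CM. LOX changed by -0.96 ± 0.16 with young CM (adjusted p = 0.0697) and -1.19 ± 0.16 with senescent CM.

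The medium and the matrix of senescent MSCs gave values that differed for many of these genes. Between senescent CM and senescent ECM, 1428 genes passed (7.93%), 628 higher (3.49%) and 800 lower (4.44%) in senescent CM. FOXS1 was at 5.17, 5.08 and 7.93 CPM in senescent CM and 0.149, 0.357 and 0.188 CPM in senescent ECM (log2 fold change 4.73 ± 0.33, adjusted p = 1.23e-06). MYLK2 was at 25.5, 27.2 and 31 CPM in senescent CM and 3.65, 3.08 and 2.76 CPM in senescent ECM (log2 fold change 3.16 ± 0.19). AMTN, HES1, SNAI1, HIC1, KRT7 and DDIT4 stood higher in senescent CM by 2.91, 2.55, 2.50, 2.46, 2.37 and 2.24 on the log2 scale. SERPINB2 was at 19.3, 23 and 11.5 CPM in senescent CM and 292, 414 and 434 CPM in senescent ECM (log2 fold change -4.41 ± 0.22, adjusted p = 1.08e-07), the largest fall of the named genes. STC1 was at 71.6, 71.9 and 28.6 CPM in senescent CM and 424, 436 and 266 CPM in senescent ECM (log2 fold change -2.74 ± 0.23). CCN3, ABI3BP, a matrix protein, LYPD5, THBD, CIITA and DPP4 stood lower in senescent CM, with log2 fold changes of -2.82, -2.71, -2.52, -2.25, -2.21 and -2.13. Leaving out 1 library gave 748 to 1384 genes, with the count down by over 1.5 times without senescent CM replicate 3 or 4 or senescent ECM replicate 2 or 4, and 882 genes passed without the block. Senescent ECM changed 200 genes against control (1.11%), 147 higher (0.816%) and 53 lower (0.294%). Among the 28 largest named changes, SERPINB2, MMP1, STC1, DPP4 and GCKR fell in senescent CM and rose on senescent ECM relative to control, and FOXS1, SNAI1, MYLK2 and DHRS2 did the reverse, each past the threshold in both. Called list members outside those 28 also had opposite directions past the threshold, among them AREG, WNT16 and CCN3, which fell in senescent CM, and KRT7, EFNA1 and EDN1, which rose. On senescent ECM their log2 fold changes over control were 1.42 ± 0.18 for AREG, 2.07 ± 0.29 for WNT16, 1.90 ± 0.21 for CCN3, -1.18 ± 0.17 for KRT7, -1.22 ± 0.24 for EFNA1 and -0.74 ± 0.14 for EDN1.

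**Figure D5:**
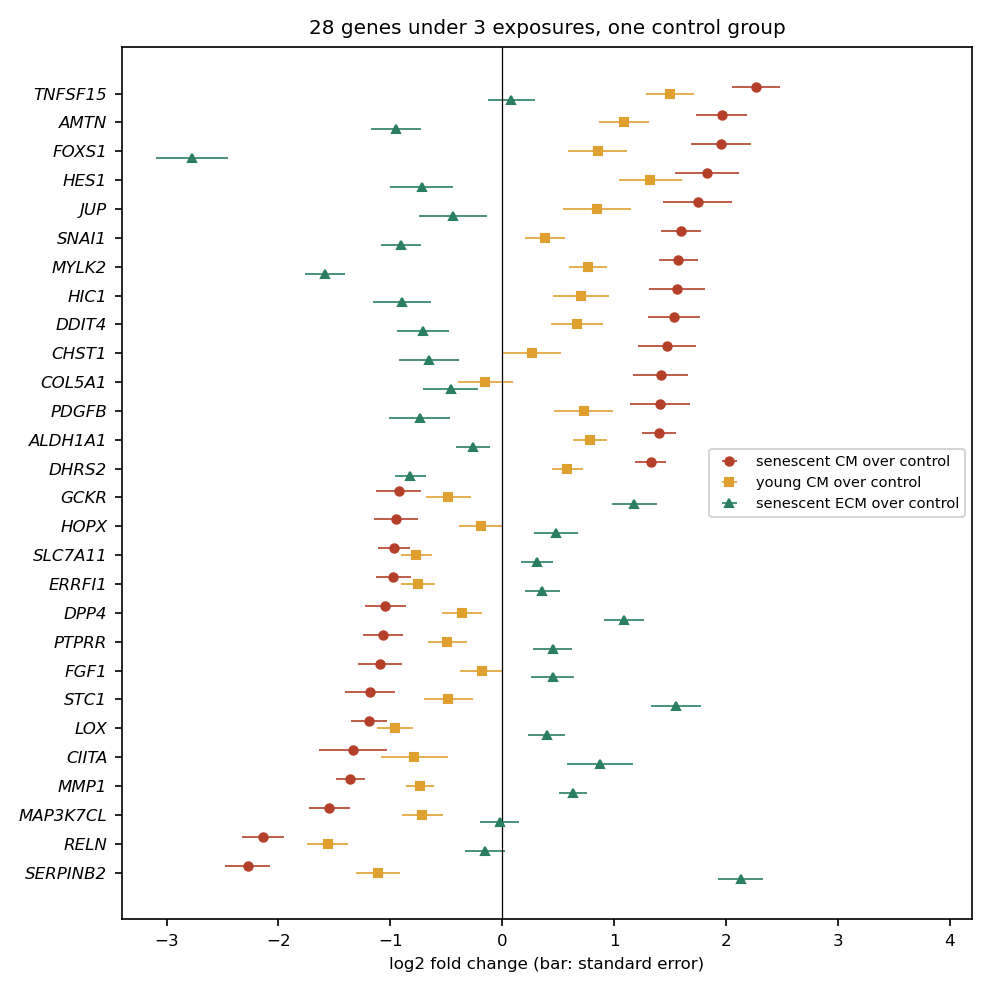
Log2 fold change over the same control libraries of 28 named genes, the 14 largest rises and 14 largest falls of senescent CM, with standard errors, for senescent CM (red circles), young CM (orange squares) and senescent ECM (green triangles). Young CM values lie on the same side of 0 as senescent CM except for COL5A1. The genes were picked by senescent CM against these same control libraries, so a shared side is no sign of a shared response. Senescent ECM values lie on the other side for most genes, SERPINB2 at 2.13 on senescent ECM and -2.28 with senescent CM.

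Replicate 1 of senescent CM and control, left out of the main tests because of its stromal RNA, gives a separate pair of libraries. Of 120 genes called higher and detected there at 1 CPM or more, 91 were higher in senescent CM replicate 1 than in control replicate 1; of 63 called lower, 42 were lower. Over all 12750 genes detected, 48.4% were higher and 51.6% lower. ALDH1A1 was at 46.4 CPM in senescent CM replicate 1 and 34.7 CPM in control replicate 1, and JUP was at 69.3 CPM in senescent CM and 28.5 CPM in control. TXNRD1 was at 597 CPM in senescent CM and 889 CPM in control, and MMP1 at 791 CPM in senescent CM and 1117 CPM in control. Others did not follow: SNAI1 was at 14.6 CPM in senescent CM and 16.2 CPM in control, EDN1 at 64.5 CPM in senescent CM and 78.2 CPM in control, CDH5 at 184 CPM in senescent CM and 193 CPM in control, and STC1 at 43 CPM in senescent CM and 27 CPM in control. With all 4 replicates in the fit 84 genes passed.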

How the data were processed

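The deposited table holds whole-number read counts per gene for 27 poly(A) RNA libraries in 7 groups, made by the authors with HISAT2 2.2.1 and featureCounts 2.0.1 on GRCh38, per the submitters' processing notes. The kit marks strand, per the labels' protocols; for the strand setting and the annotation release, the sources used here give nothing. Of 60648 entries, 44 Y copies of pseudoautosomal genes (109832 counts) were left out. Levels are CPM, counts relative to the scaled library total, with TMM factors over 20 libraries. Totals were 66320519 to 111512357 counts per library, so counting error is small beside the spread between libraries (common biological coefficient of variation 0.17).

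Genes were tested with edgeR 4.0.16 (R 4.3.3) by the quasi-likelihood F-test on group plus replicate number, in 15 libraries (replicates 2 to 4 of control, both ECM and both CM groups), after filterByExpr with a minimum count of 10 and TMM scaling, with 8 residual degrees of freedom. DESeq2 1.42.0, other scalings, no filter, no block, all 4 replicates, only 2 groups and leaving out single libraries were alternatives. Nothing in the labels ties equal replicate numbers to a shared day or culture. Libraries of one group differed by more than sampling noise (chi-square per degree of freedom 48.5 to 146 in senescent CM and 127 to 491 in control), so none was treated as 1 library deposited more than once; this does not show that they were separate cultures.

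Named genes were protein-coding, past the threshold, at a mean of 5 CPM or more in a group and with libraries that did not overlap: the 14 largest rises and 14 largest falls, up to 8 per direction in the other contrasts, and any called member of 39 gene lists. The members and lists were chosen with earlier results of these data known. Positions and shared exon bases are from GENCODE 29 (58336 of the 60604 entries used have a position); of 81 called genes checked, 9 shared over 10% of exon bases with another gene. Promoters are from RefSeq (GRCh38.p14). Co-culture groups were not analysed here, and 1 gene that passed against young CM is not reported here.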

Additional observations from a re-analysis of the deposited data

Results flagged for a closer look

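The direct test of senescent CM against young CM passed for 7 genes. On the log2 scale, senescent CM minus young CM was 2.62 for MAF, 1.57 for COL5A1, 1.39 for LIPG, 1.31 for NEDD9, 1.22 for SNAI1 and 1.18 for PCDH1. Each of these was higher in senescent CM in replicates 2 to 4, and all 7 calls were lost without young CM replicate 3.

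Of the 28 largest named changes against control, 9 passed the threshold in opposite directions with the medium and the matrix of senescent MSCs. The direct test takes the difference of those 2 fold changes in the same fit. Its pass for these 9 genes is therefore no separate support. Senescent CM minus senescent ECM was 4.73 for FOXS1, 3.16 for MYLK2, 2.50 for SNAI1 and 2.15 for DHRS2 on the log2 scale. It was -4.41 for SERPINB2, -2.74 for STC1, -2.13 for DPP4, -2.10 for GCKR and -1.99 for MMP1.

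Replicate 1 was not in the main tests. There, 6 of the named rises and called list members reached 5 CPM or more in senescent CM and stood at more than 2 times the control level. FOXS1 was at 20.3 CPM in senescent CM replicate 1 and 8.34 CPM in control replicate 1, JUP at 69.3 CPM in senescent CM and 28.5 CPM in control, and CCL2 at 110 CPM in senescent CM and 51.4 CPM in control. ICAM1 was at 77.7 CPM in senescent CM and 25.4 CPM in control, IFI6 at 135 CPM in senescent CM and 47.9 CPM in control, and OAS2 at 81.5 CPM in senescent CM and 23.8 CPM in control. Under 5 CPM, TNFSF15 was at 4.70 CPM in senescent CM replicate 1 and 1.54 CPM in control replicate 1, ABCG1 at 2.07 CPM in senescent CM and 0.449 CPM in control, and KRT81 at 0.899 CPM in senescent CM and 0.396 CPM in control. LPCAT3, named after its values were seen, was at 38.8 CPM in senescent CM and 18.8 CPM in control. The stromal markers summed to 10060 CPM in senescent CM replicate 1 and 9430 CPM in control replicate 1, and the part of stromal RNA in these values was not tested. Groups of 3 libraries were not screened for single outlying libraries.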

How the results depend on the processing

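Against control, 230 genes passed; 248 did with DESeq2 size factors, 211 with library totals and 241 with only the 2 groups fitted. The count was 442 with the DESeq2 test, 531 with no low-count filter, 84 with all 4 replicates and the replicate block, 91 with no replicate block, and 63 to 132 when 1 library was left out. Against young CM, where 7 passed, the count was 137 with the DESeq2 test, 623 with no low-count filter, 0 with all 4 replicates, 3 with no replicate block, 0 with only the 2 groups, and 0 to 6 when 1 library was left out. Against senescent ECM, where 1428 passed, it was 882 with no replicate block, 3305 with only the 2 groups, and 748 to 1384 when 1 library was left out. With the replicate numbers taken as pairs, the deviations from the group means of same-numbered senescent CM and control libraries correlated at 0.423, 0.315 and 0.0302 for replicates 2, 3 and 4, so the data do not show the pairing for every number; each senescent CM library correlated more with its own number than with the others except replicate 4. Why these counts moved was not tested, beyond the fewer libraries that leaving one out implies. Of 76 named genes, all kept their call under DESeq2, 75 with no filter, 71 with library totals, 66 with only the 2 groups, 41 with no replicate block and 25 with all 4 replicates; 25 kept it in all 6 fits without 1 library, and none of the 76 changed sign. MAF and LPCAT3, named after their values were seen, were not run with single libraries left out against control. Of 507 list medians recomputed, 50 moved by more than the spread between the pairs. Depth limits most the values of genes near or under 1 CPM, such as PMEPA1, MAF, KRT81 and F2RL3.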
